A study of Bos taurus with 28 samples.

Results

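The genes described here carry fatty acids into the milk-secreting cell and activate them to acyl-CoA. There are 9: ACSS1 and ACSS2, which activate acetate, ACSL1 and ACSL3, which activate long-chain fatty acids, and LPL, VLDLR, CD36, FABP3 and SLC27A6, which serve the uptake of preformed fatty acids from blood. Every probe set with exactly 1 of these symbols in the platform annotation was taken, which gave 15 of the 24016 probe sets tested. They represent 9 of 9155 genes and divide into 3 probe sets for acetate activation, 4 for long-chain activation and 8 for uptake. ACSS1 had 2 probe sets, ACSL3 had 3, VLDLR had 4 and each other gene had 1.

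Milk fat draws on fatty acids from separate sources. In ruminants the gland builds short and medium chains from acetate and beta-hydroxybutyrate of the blood, and it takes up longer chains that are released from circulating lipoproteins or carried by albumin. Both kinds must be joined to coenzyme A before they can be used, and DGAT1 then adds an acyl-CoA to diacylglycerol, the last step of triglyceride synthesis.

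The samples were mammary biopsies of 28 Holstein-Friesian dairy cows, all in the middle of lactation and fed a control diet, and each biopsy was hybridised to an Affymetrix Bovine Genome Array of its own. The groups were the natural DGAT1 genotypes: 4 KK cows with lysine on both alleles, 13 KA cows with lysine and alanine, and 11 AA cows with alanine on both alleles. The deposited values are on a log2 scale, and each probe set carries its own baseline that was taken off, so a value shows how a cow stood against the other cows for that probe set and never how abundant a transcript was against another. Cows are called by genotype and a number that pairs nothing.

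The biopsies are bulk tissue, in which fewer cells of a type and less RNA per cell cannot be told apart. The level class read from the rounding of the values was bright for 7 of the 9 milk-secreting epithelium markers, among them all the caseins, and for 7 of the 9 genes described here, against 21.7% of all genes. The other 2 were SLC27A6 and ACSL3, at an intermediate level. Of 6 adipocyte markers 4 were dim, and the bright one was FABP4, which endothelium also makes. The arrays of cows AA 2 and AA 9 stood apart: their SD over probe sets was 0.86 and 0.78, against 0.21 to 0.35 in the other 26, and their correlation with each other of 0.748 was above the next highest, 0.540. Array numbers in the labels run from 29 to 56. The numbers 29 to 42 held all 4 KK cows, 2 KA cows and 8 AA cows, and the numbers 43 to 56 held 11 KA cows and 3 AA cows.

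Of the 9 genes, 7 had their 2 lowest values in that pair. ACSS1, ACSS2, ACSL1, LPL, CD36, FABP3 and SLC27A6 were lower in AA 2 and AA 9 than in every other cow. FABP3, the fatty acid binding protein that is abundant in the cytosol of the lactating gland, stood at −3.34 (AA 2) and −4.83 (AA 9), while the other 26 cows ran from −0.70 to 0.26. That placed FABP3 9.5-fold and 26.7-fold below the median of the other 9 AA cows.

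SLC27A6, a fatty acid transport protein of the plasma membrane, stood at −3.21 (AA 2) and −4.18 (AA 9), while the others ran from −0.58 to 0.86. LPL, the lipase that frees fatty acids from triglyceride-rich lipoproteins, stood at −2.73 (AA 2) and −4.00 (AA 9), while the others ran from −0.99 to 0.35. CD36, a membrane receptor that helps long-chain fatty acids into the cell, stood at −2.13 (AA 2) and −2.84 (AA 9), while the others ran from −0.66 to 0.17. In each of these uptake genes AA 9 was lower than AA 2.

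For acetate activation AA 2 was the lower of the pair. ACSS2, the acetyl-CoA synthetase of cytosol and nucleus, stood at −3.50 (AA 2) and −3.40 (AA 9), while the others ran from −0.47 to 0.89. ACSS1, the mitochondrial acetyl-CoA synthetase, stood at −2.18 (AA 2) and −1.38 (AA 9) by its probe set Bt.15996.1.S1_at, while the others ran from −0.30 to 0.96. By Bt.15996.1.S2_at it stood at −1.09 (AA 2) and −0.75 (AA 9), below the others at −0.51 to 0.76. ACSL1, a long-chain acyl-CoA synthetase, stood at −1.07 (AA 2) and −1.92 (AA 9), while the others ran from −0.62 to 0.38.

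Not all members were low in the pair. ACSL3, a long-chain acyl-CoA synthetase of endoplasmic reticulum and lipid droplets, was above every other cow in both arrays for its probe set Bt.19850.2.S1_at, at 0.89 (AA 2) and 0.59 (AA 9) where the others ended at 0.37. By Bt.19850.1.S1_at it stood at 1.97 (AA 2) and 0.47 (AA 9) where the others ended at 0.67. VLDLR, a receptor that binds triglyceride-rich lipoproteins, stood at −0.92 (AA 2) and −1.57 (AA 9) by Bt.5484.1.S1_at, and AA 9 lay below the range of the other 26 cows, which began at −1.18, while AA 2 did not. By Bt.29875.1.S1_s_at VLDLR stood at −1.08 (AA 2), below the others, which began at −0.75, and at −0.74 (AA 9), at their lower end. By its remaining probe sets it lay within the others in both arrays.

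Counted over the 15 probe sets, 8 (53.3%) had both arrays below all other 26, against 17.69% of all probe sets, and 1 (6.7%) had both above, against 18.35%. FABP3 had an SD of 1.09 over 28 arrays, higher than 99.5% of probe sets, and of 0.20 over the other 26, higher than 47.2%. CD36 had an SD at the percentile 96.5 over 28 arrays and at 43.8 over 26. SLC27A6 and VLDLR were among the more variable probe sets also without the pair, with an SD of 0.42 (percentile 94.2) for SLC27A6 and 0.49 (percentile 96.7) for VLDLR Bt.5484.1.S1_at.

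**Figure D1:**
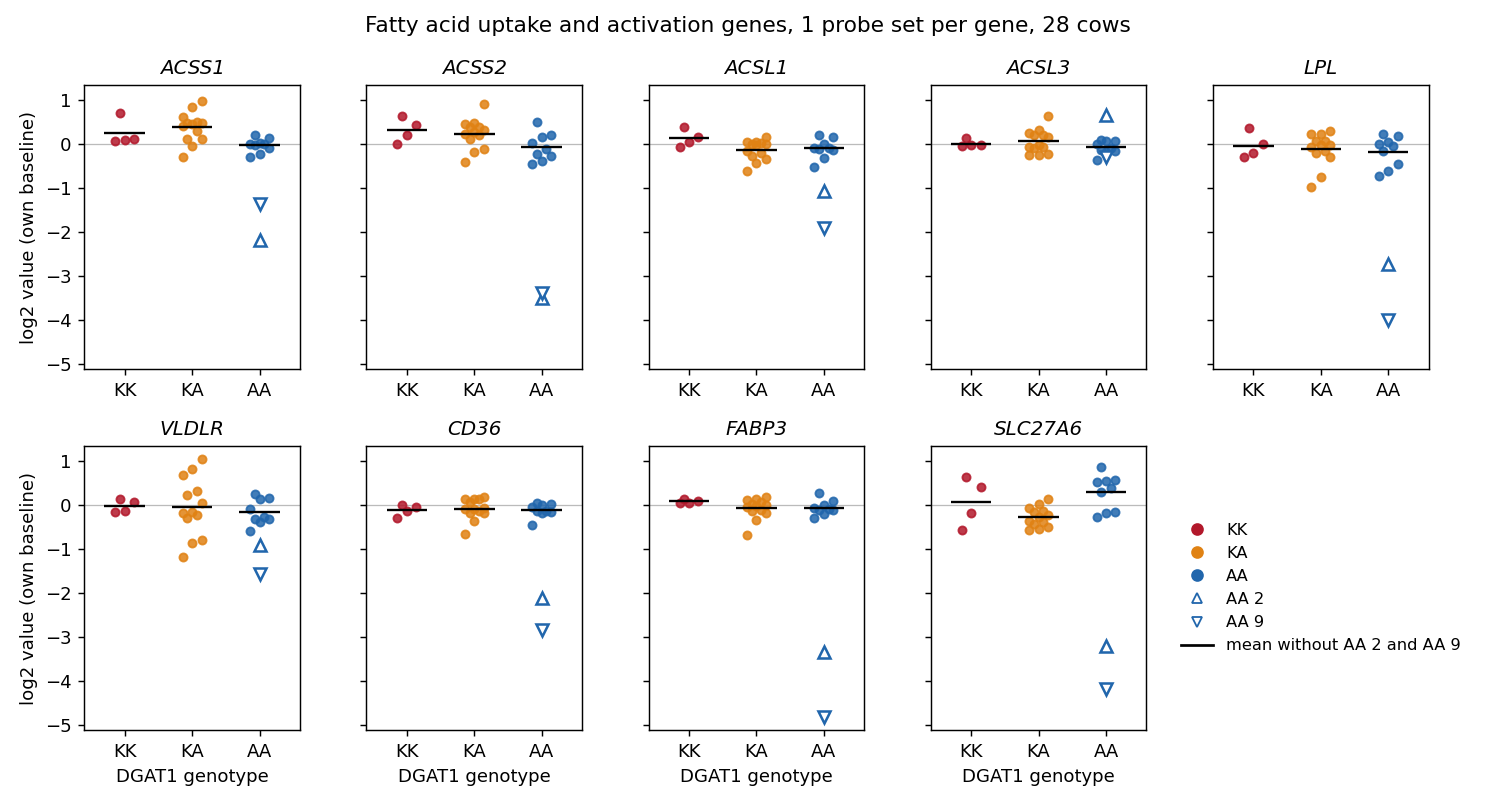
Log2 value of each cow (vertical axis, own baseline for each probe set) by DGAT1 genotype (horizontal axis) for the probe set that represents each of the 9 genes, with open triangles for AA 2 and AA 9 and lines for the genotype means of the other 26 cows. AA 2 and AA 9 lie below all other cows in 7 genes, with FABP3 at −4.83 as the lowest value, while ACSL3 at 0.66 and −0.31 does not follow.

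Markers of other tissue parts stood off in the same pair of cows. The mean of the 8 fibroblast and matrix markers was 1.20 (AA 2) and 1.57 (AA 9), while the other 26 ran from −0.47 to 0.45, and in both arrays all markers but PDGFRA were above every other cow. The mean of the 6 adipocyte markers was −0.49 (AA 2) and −0.60 (AA 9), below the others at −0.29 to 0.29. FABP4 alone stood at −2.38 (AA 2) and −3.55 (AA 9). The mean of the 5 other adipocyte markers was −0.12 (AA 2) and −0.01 (AA 9), within the range of the other cows at −0.23 to 0.24. Of these 5, CIDEC stood at 0.23 and 0.90, PCK1 at 0.61 and 0.04 and ADIPOQ at −0.31 and −0.27. LIPE stood at −0.95 and −0.42, where the other cows began at −0.53. LEP stood at −0.16 and −0.30, where they began at −0.24. All 6 milk protein genes were below every other cow in AA 9, at −1.81 to −1.08. In AA 2 they stood at −0.79 to −0.29, where CSN3, the kappa casein, lay within the range of the others, which began at −0.34, and CSN2, the beta casein, at −0.33 was next to its lowest other cow at −0.30. CSN1S1, an alpha casein, stood at −0.60 (AA 2) and −1.08 (AA 9) with the others at −0.17 to 0.21, and LALBA, the regulatory subunit of lactose synthase, at −0.71 and −1.81 with the others at −0.33 to 0.10. The epithelial gene EPCAM was above all others at 1.43 (AA 2) and 1.22 (AA 9), as was the keratin KRT18 at 2.32 and 2.98, where the others ended at 1.44. KRT8 at 0.12 and −0.39 lay within the others, and the mean of the 9 epithelial markers was 0.08 (AA 2) and −0.49 (AA 9), with the others at −0.23 to 0.16. The mean of the 6 myoepithelium and smooth muscle markers was 0.60 (AA 2) and 1.45 (AA 9), with the others at −0.63 to 0.79, and that of the 8 endothelium markers was −0.44 (AA 2) and 0.21 (AA 9), with the others at −0.21 to 0.55. The mean of the 5 lymphocyte markers was 0.46 (AA 2) and 0.69 (AA 9), and that of the 5 myeloid markers 0.33 and 0.46, all within the others. For lymphocytes the only other cow that reached as high was a KK cow at 0.72, while the mean of the KK cows was 0.22 and their lowest value 0.04. KA cows ended at 0.07 and the 9 other AA cows at 0.17. Single markers left the range of the other 26 in both arrays. CD3G at 1.74 and 2.00 and AIF1 at 1.26 and 1.83 were above it. So were the myoepithelium and smooth muscle markers KRT5 at 1.36 and 1.34, KRT14 at 2.19 and 5.08 and MYH11 at 0.82 and 0.78. CD14 at −1.16 and −1.61 and MS4A1 at −0.32 in both were below it. So were the endothelium marker KDR at −0.45 and −0.36 and PDGFRA at −0.44 and −0.95. A sign of RNA quality, the actin and GAPDH control probe sets at the 3′ end less those at the 5′ end, gave 0.60 (AA 2) and −0.44 (AA 9), on opposite sides of the other AA cows at −0.20 to 0.34. The part of any of these in the low values was not tested.

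Over the genotypes, no probe set of the 15 passed limma's test in any comparison at an adjusted p under 0.05, with all 28 arrays or without that pair. Of all 24016 probe sets 0 passed with all 28 arrays in the slope per K allele, KK minus AA, KA minus AA and KK minus KA, a share of 0% in each. The unadjusted p is therefore used only to order values, beside the share of all probe sets under 0.05.

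In the slope per K allele, where AA, KA and KK count 0, 1 and 2 K alleles, 12 of the 15 probe sets had a positive value, with a median of 0.23 against 0.009 over all probe sets. An unadjusted p under 0.05 was found for 4, all upward (ACSS1 with both probe sets, ACSS2 and ACSL1), against 9.16% of all probe sets in either direction and 4.68% upward. Without AA 2 and AA 9 the median was 0.06 against 0.004, and 2 of 15, ACSS2 and ACSS1 Bt.15996.1.S1_at, were under 0.05, against 3.26% of all.

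In KK minus AA, 1 of 15 was under 0.05 (ACSS1 Bt.15996.1.S2_at), against 3.51% of all, and without the pair 1 of 15 (ACSS2), against 2.76%. In KA minus AA, 5 of 15 were under 0.05, against 21.8% of all: ACSS2, both probe sets of ACSS1 and a VLDLR probe set were higher in KA and an ACSL3 probe set was lower. Without the pair 5 of 15 were under 0.05, against 9.50% of all, with SLC27A6, lower in KA, in the place of the second ACSS1 probe set. In KK minus KA, 0 of 15 were under 0.05 by limma, against 2.84% of all, and without the pair 2 of 15 (ACSL1 and an ACSL3 probe set, both higher in KK), against 6.08%.

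Among the members the acetate genes had the smallest p of the slope, and in both the KA and KK means were above the AA mean. By ACSS1 Bt.15996.1.S1_at the KA mean of 0.37 was also above the KK mean of 0.24. ACSS2 stood at 0.63, 0.43, 0.00 and 0.19 in the 4 KK cows. In the 13 KA cows ACSS2 had −0.42 as the lowest value, 0.27 as the median and 0.89 as the highest. In the 11 AA cows ACSS2 had −3.50 as the lowest, −0.23 as the median and 0.49 as the highest. All 4 KK cows and 10 of 13 KA cows were above the mean of the 9 other AA cows, but 1 KK cow and 1 KA cow were above the highest of them, so the groups overlapped. Such counts were not computed over all probe sets.

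The slope of ACSS2 was 0.60 per K allele (SE 0.24, unadjusted p = 0.0177, limma adjusted p = 0.526), and without AA 2 and AA 9 it was 0.21 (SE 0.09, unadjusted p = 0.0195, limma adjusted p = 1). KK minus AA was 1.00 (95% interval −0.03 to 2.03) and 0.38 without the pair (0.01 to 0.75). KA minus AA was 0.91 (0.19 to 1.63) and 0.30 without the pair (0.03 to 0.56). The direction was thus kept while the size was smaller without the pair, and KK minus KA was 0.09 with an interval of −0.92 to 1.10. Within the array numbers 29 to 42, KK minus AA of ACSS2 was 0.81 and, without AA 2, 0.38. KA minus AA was 0.59 within 29 to 42 and 1.45 within 43 to 56. Without the low cow of each range it was 0.16 (limma unadjusted p = 0.488) and 0.34 (limma unadjusted p = 0.165). Few cows stood on 1 side: KA 1 at 0.38 and KA 2 at −0.18 within 29 to 42. Within 43 to 56 these were AA 10 at −0.39 and AA 11 at 0.20, beside AA 9.

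ACSS1 gave a positive slope by both probe sets, which had a correlation of 0.80 over the 26 cows. Bt.15996.1.S1_at stood at 0.11, 0.07, 0.70 and 0.09 in the KK cows, where KK 3 stood clear of the other 3. In the KA cows it had −0.30 as the lowest value, 0.45 as the median and 0.96 as the highest. In the AA cows it had −2.18, −0.03 and 0.19. Of the 13 KA cows 9 were above the highest AA cow, and 1 of the 4 KK cows was. By Bt.15996.1.S2_at 3 of the 13 KA cows were above the highest of the 9 other AA cows and 1 was below the lowest. How many of all probe sets stood this far apart was not computed.

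The slope of ACSS1 Bt.15996.1.S1_at was 0.40 per K allele (SE 0.15, unadjusted p = 0.0107, limma adjusted p = 0.526) and 0.20 without the pair (SE 0.09, unadjusted p = 0.0309). KA minus AA was 0.73 (95% interval 0.30 to 1.15, limma adjusted p = 0.131), and 0.41 without the pair (0.17 to 0.66, limma adjusted p = 0.251). KK minus AA was 0.60 (−0.01 to 1.20), and 0.28 without the pair (−0.06 to 0.62), and KK minus KA was −0.13. KA minus the midpoint of AA and KK was 0.43 (0.01 to 0.85, limma adjusted p = 0.504), and 0.27 without the pair (0.04 to 0.50, limma adjusted p = 0.407). The highest mean was thus that of KA, not of KK. Within array numbers KA minus AA was 0.61 and 0.86, and without the low cow of each range 0.34 and 0.41, so it was positive in all of these fits. They had few cows on 1 side: KA 1 at 0.11 and KA 2 at 0.49 within 29 to 42. Within 43 to 56 these were AA 10 at −0.03 and AA 11 at −0.01, beside AA 9. The other probe set had a slope of 0.27 (SE 0.10) and 0.17 without the pair (SE 0.08). Its KK minus AA was 0.49 (0.06 to 0.93), and 0.53 within 29 to 42, or 0.41 without AA 2. Its KA minus AA was 0.34 (0.04 to 0.65), 0.18 without the pair, and −0.05 within 43 to 56 without AA 9.

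The uptake genes LPL, FABP3 and CD36 had positive slopes with all cows and slopes near 0 without the pair. LPL stood at 0.35, −0.22, 0.00 and −0.30 in the KK cows. It had −0.99, −0.02 and 0.29 as the lowest, median and highest in KA cows, and −4.00, −0.16 and 0.22 in AA cows. Its slope was 0.43 (SE 0.23, unadjusted p = 0.0762) with all cows and 0.07 (95% interval −0.13 to 0.26) without the pair.

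FABP3 stood at 0.09, 0.04, 0.03 and 0.13 in the KK cows, the tightest group of any of these genes, with −0.70, −0.03 and 0.18 in KA cows and −4.83, −0.12 and 0.26 in AA cows. Its slope was 0.50 (SE 0.27, unadjusted p = 0.0754) and 0.05 (interval −0.06 to 0.17) without the pair. CD36 stood at 0.00, −0.06, −0.15 and −0.31 in the KK cows, with −0.66, −0.09 and 0.17 in KA cows and −2.84, −0.15 and 0.03 in AA cows. Its slope was 0.27 (SE 0.17) and 0.00 (interval −0.11 to 0.12) without the pair. Among the 26 cows KA 2 was the lowest for LPL, FABP3 and CD36 alike.

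SLC27A6 had a KA minus AA of another sign without the pair, with an interval that excluded 0. Other members that changed sign without the pair had intervals that included 0, among them FABP3 (−0.02) and ACSL1 (−0.04) in KA minus AA and CD36 (−0.01) in KK minus AA. SLC27A6 stood at 0.63, −0.18, −0.58 and 0.40 in the KK cows. In the KA cows it had −0.58 as the lowest value, −0.29 as the median and 0.12 as the highest. In the AA cows it had −4.18, 0.29 and 0.86. All 13 KA cows were below the mean of the 9 other AA cows, 0.28, and 7 of them were below the lowest of the 9. The KK cows spread over the range of both. The share of all probe sets with such a separation was not computed.

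With all cows KA minus AA for SLC27A6 was 0.16 (SE 0.41, 95% interval −0.69 to 1.01). Without AA 2 and AA 9 it was −0.56 (SE 0.14, interval −0.85 to −0.27, unadjusted p = 4.78e-04, limma adjusted p = 0.212), at place 54 of 24016 by p. Leaving out any further cow of the 26 gave −0.63 to −0.49. Within the array numbers 29 to 42 KA minus AA was −0.34, and −0.77 without AA 2. Within 43 to 56 it was 0.93, and −0.58 without AA 9. The value was thus negative within each range of array numbers once the low cow was left out, with few cows on 1 side. Within 29 to 42 the KA cows were only KA 1 at −0.58 and KA 2 at −0.44. Within 43 to 56 the AA cows left were AA 10 at 0.86 and AA 11 at −0.18. AA 11 lay among the KA cows, so the value there rested on AA 10. KK minus KA was 0.35 in both fits, with an interval of −0.03 to 0.73 without the pair.

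**Figure D2:**
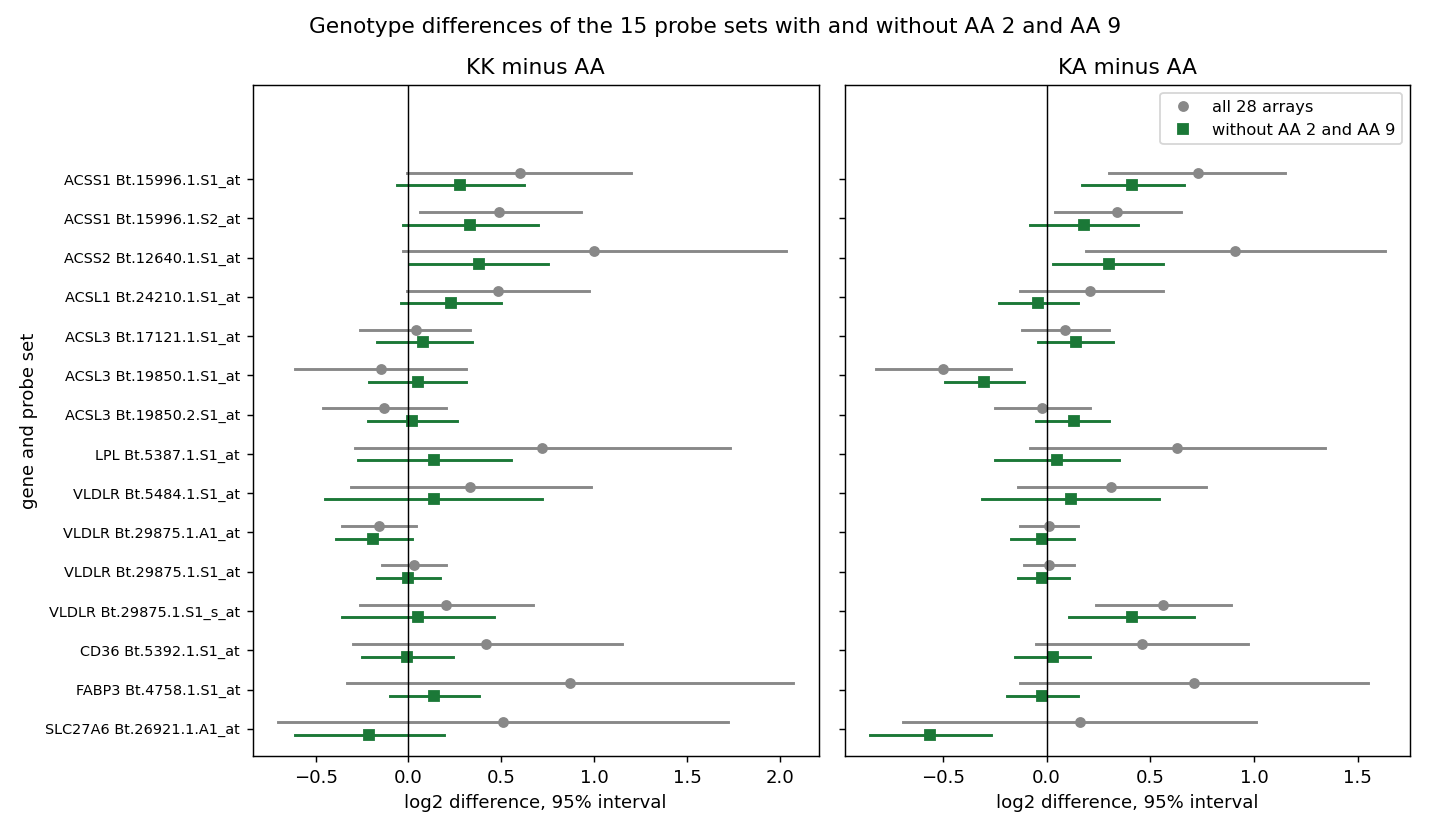
Log2 difference with its 95% interval (horizontal axis) for KK minus AA and KA minus AA, for each gene and probe set (vertical axis), from all 28 arrays in grey and from the 26 without AA 2 and AA 9 in green. The intervals of ACSS2, LPL, CD36, FABP3 and SLC27A6 are narrower without the pair, and KA minus AA of SLC27A6 is −0.56 where all arrays give 0.16.

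The long-chain synthetases differed from each other. ACSL1 stood at 0.38, −0.08, 0.03 and 0.16 in the KK cows, with −0.62, −0.04 and 0.15 in KA cows and −1.92, −0.12 and 0.20 in AA cows. Its slope was 0.23 (SE 0.11, unadjusted p = 0.0439) and 0.08 (SE 0.06) without the pair. All 4 KK cows were above the mean of the 9 other AA cows, and 7 of 13 KA cows were, counts that were not computed over all probe sets. Without the pair KK minus KA was 0.27 (interval 0.01 to 0.52, limma adjusted p = 0.808), KK minus AA was 0.23 (−0.04 to 0.50) and KA minus AA was −0.04 (−0.23 to 0.15).

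The 3 probe sets of ACSL3 did not move together, with correlations of 0.06 to 0.19 over the 26 cows. For Bt.19850.1.S1_at KA minus AA was −0.50 (95% interval −0.82 to −0.17, limma adjusted p = 0.139) and −0.30 without the pair (−0.49 to −0.11), and 0 of the 13 KA cows were above the mean of the 9 other AA cows. The share of all probe sets with such a split was not computed. Bt.17121.1.S1_at gave 0.09 for KA minus AA and Bt.19850.2.S1_at gave −0.02, and without the pair both were positive, at 0.14 and 0.13. The values are given by probe set for that reason. Within the array numbers 29 to 42, KA minus AA of Bt.19850.1.S1_at was −0.42, and −0.18 without AA 2. Within 43 to 56 it was −0.59, which passed limma's adjusted threshold there, as did 9.08% of all probe sets, and −0.56 without AA 9, which did not, where 0.0250% of all passed. These values had few cows on 1 side. The KA cows within 29 to 42 were only KA 1 at −0.05 and KA 2 at −0.18. The AA cows within 43 to 56 other than AA 9 were AA 10 at 0.10 and AA 11 at 0.67.

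VLDLR, too, differed by probe set. For Bt.29875.1.S1_s_at, whose ending marks a probe set that may bind further transcripts, KA minus AA was 0.56 (95% interval 0.24 to 0.89, limma adjusted p = 0.131) and 0.41 without the pair (0.11 to 0.71), and 12 of 13 KA cows were above the mean of the 9 other AA cows. How many of all probe sets gave such a count was not computed. Bt.5484.1.S1_at, bright and correlated with Bt.29875.1.S1_s_at at 0.68, gave 0.31 (−0.14 to 0.77) and 0.12 without the pair. The other probe sets, among them the dim Bt.29875.1.A1_at, each gave 0.01 for KA minus AA and had correlations of −0.04 to 0.34 with the rest. The widest group of Bt.5484.1.S1_at was KA, with −1.18 in KA 9 and 1.04 in KA 1, next to −0.16 to 0.12 in KK and −0.59 to 0.24 in the 9 AA cows. Within the array numbers 29 to 42, KA minus AA of Bt.29875.1.S1_s_at was 0.54, and 0.41 without AA 2. The KA cows there were only KA 1 at 0.99 and KA 2 at −0.25, so the positive value rested on KA 1. Within 43 to 56 KA minus AA was 0.71, which passed limma's adjusted threshold there, and 0.53 without AA 9, which did not. The AA cows then left were AA 10 at 0.34, near the median of all KA cows at 0.37, and AA 11 at −0.75. The value there thus rested on AA 11. Bt.29875.1.S1_s_at and the ACSL3 probe set were the 2 of 15 that passed within 43 to 56, next to the 9.08% of all probe sets. Without AA 1 alone, of the 28 cows, KA minus AA of Bt.29875.1.S1_s_at was 0.64 and passed, as did 2.19% of all probe sets.

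**Figure D3:**
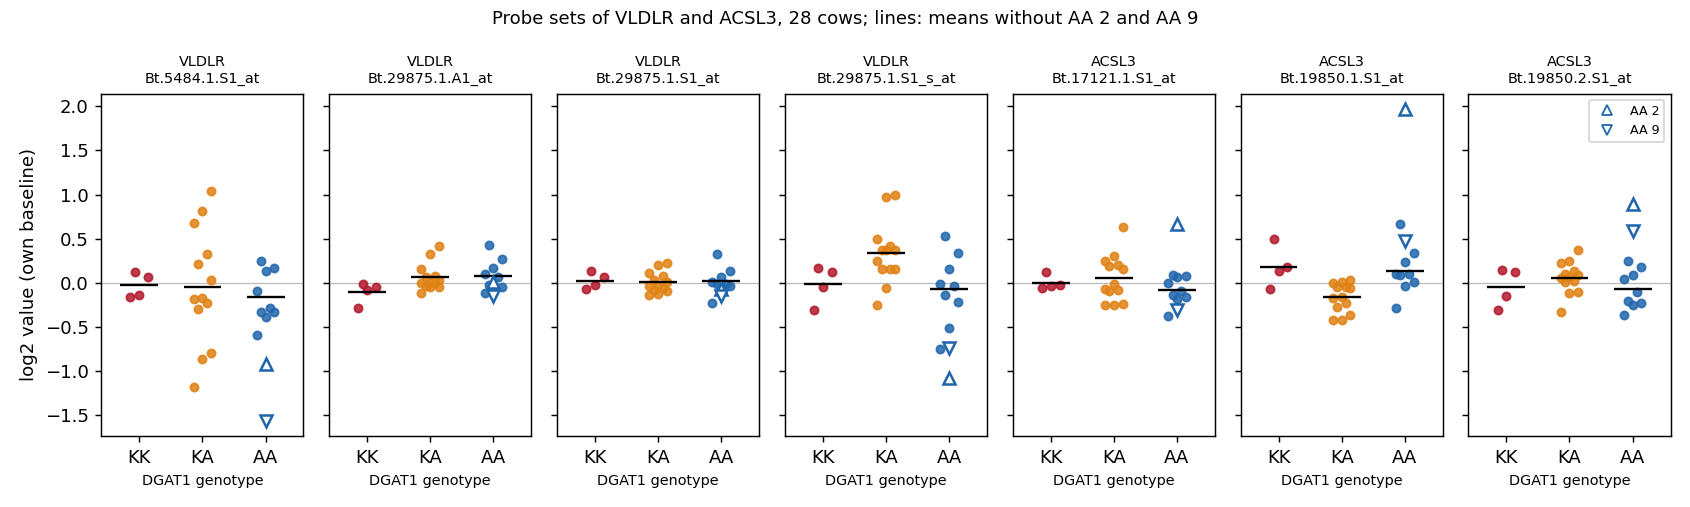
Log2 value of each cow (vertical axis, own baseline) by DGAT1 genotype (horizontal axis) for the 4 probe sets of VLDLR and the 3 of ACSL3, with lines for the means of the 26 cows other than AA 2 and AA 9 (open triangles). The KA mean is 0.34 for VLDLR Bt.29875.1.S1_s_at and −0.17 for ACSL3 Bt.19850.1.S1_at, and no other probe set of these genes has a KA mean as far from 0.

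Cow by cow, without AA 2 and AA 9, the uptake genes CD36, LPL and FABP3 varied together. Of 36 pairs of genes 7 had a Pearson correlation that passed a two-sided permutation test over the 26 cows after Benjamini-Hochberg adjustment over the pairs, and all 7 were positive. The share of all gene pairs that would pass was not computed, so the count is no trait of these genes. Outside the set, CD36 had r = 0.87 with TOM1L1 and LPL had 0.86 with DNAJC12. CD36 and LPL were closest, with r = 0.81 (permutation p = 1.00e-05, the smallest that 100000 resamples can give, adjusted p = 3.60e-04) and Spearman's rho = 0.72 (permutation p = 5.00e-05, adjusted p = 0.0018). It was 0.87 within the lower and 0.78 within the upper array numbers, and 0.69 without the 2 cows farthest from the median of CD36. In every pair the 2 farthest cows are those of the gene that comes first in the alphabet, so they could differ between pairs.

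FABP3 had r = 0.65 with CD36 (permutation p = 7.00e-04, adjusted p = 0.0126) and rho = 0.56 (permutation p = 0.00341). With LPL it had r = 0.58 (permutation p = 0.00219, adjusted p = 0.0197) and rho = 0.47 (permutation p = 0.0175). The rank correlation with CD36 passed the adjustment (adjusted p = 0.0246) and the one with LPL did not (adjusted p = 0.0706). Without the 2 farthest cows r was 0.43 with CD36 (permutation p = 0.0362) and 0.44 with LPL (permutation p = 0.032), and neither passed the adjustment (adjusted p = 0.145 for both). With ACSL1 FABP3 had r = 0.58 (permutation p = 0.0021, adjusted p = 0.0197) and rho = 0.70 (permutation p = 1.30e-04, adjusted p = 0.00234), and r was 0.63 without the 2 farthest cows and still passed. CD36 and VLDLR had r = 0.52 (permutation p = 0.00726, adjusted p = 0.0373) and rho = 0.46 (permutation p = 0.0176, adjusted p = 0.0706), which did not pass by rank, and r was 0.50 without the 2 farthest, which did not pass either. LPL and VLDLR passed by rank alone, with rho = 0.53 (permutation p = 0.00588, adjusted p = 0.0353) and r = 0.44 (permutation p = 0.0251, adjusted p = 0.113). Within the lower and upper array numbers CD36 and FABP3 had 0.71 and 0.60, FABP3 and LPL 0.63 and 0.52, ACSL1 and FABP3 0.55 and 0.66, and CD36 and VLDLR 0.56 and 0.53.

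The acetate gene ACSS2 had its passing pairs with ACSL1 and FABP3. Its r was 0.55 with ACSL1 (permutation p = 0.00364, adjusted p = 0.0262) with rho = 0.60 (permutation p = 0.00182, adjusted p = 0.0218). Its r was 0.51 with FABP3 (permutation p = 0.00667, adjusted p = 0.0373) with rho = 0.56 (permutation p = 0.00334, adjusted p = 0.0246). Without the 2 farthest cows they were 0.60 and 0.59 and still passed. Within the lower and upper array numbers ACSS2 and ACSL1 had 0.83 and 0.41, and ACSS2 and FABP3 had 0.57 and 0.51. ACSS1 and ACSS2 had r = 0.42 (permutation p = 0.0308, adjusted p = 0.123), ACSS2 and LPL had 0.22, and SLC27A6 had no pair past the adjustment, with r from −0.29 to 0.34.

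**Figure D4:**
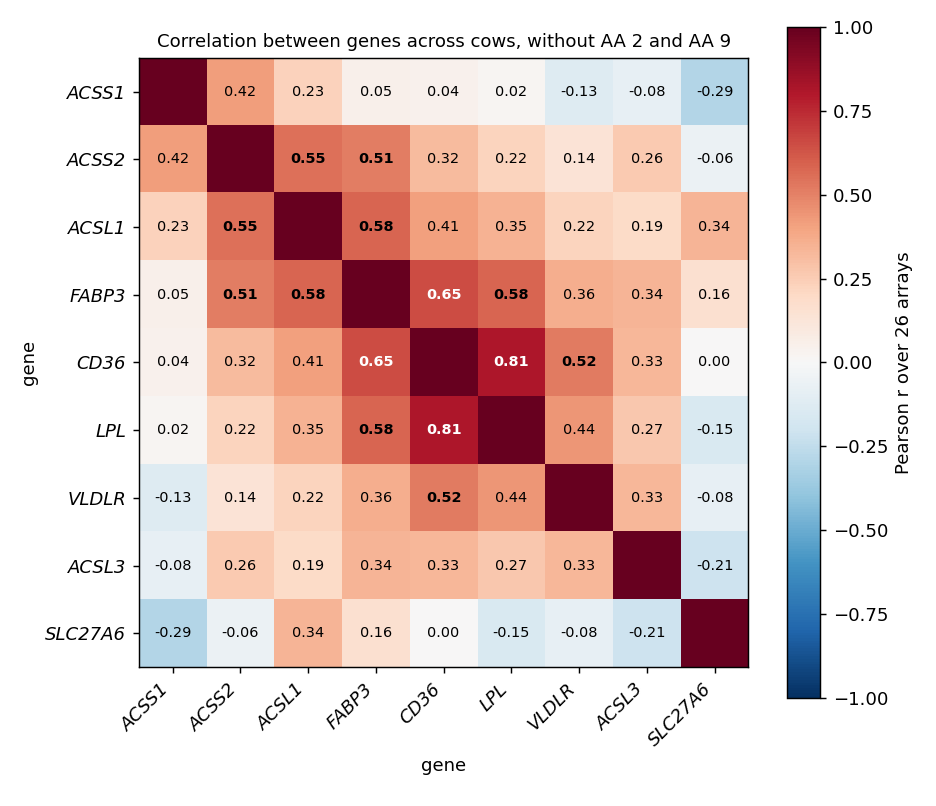
Pearson r over the 26 cows without AA 2 and AA 9 between the genes on both axes, 1 probe set per gene, with the 7 pairs past an adjusted permutation p of 0.05 in bold. CD36, LPL and FABP3 form the darkest block, ACSS2 is in bold with ACSL1 and FABP3, and the SLC27A6 row is pale, from −0.29 to 0.34.

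The genes most like each member over the 26 cows were named by the highest r, as a description, since cows share genotype and array number. ACSS2 was most like PCYT2 at r = 0.84, an enzyme of phosphatidylethanolamine synthesis, and DHCR7 at 0.83, an enzyme of the last steps of cholesterol synthesis. FABP3 was most like FASN at 0.75, the synthase that builds new fatty acids, and IDH1, a source of cytosolic NADPH, was among its top 3 at 0.69. CD36 was most like TOM1L1 at 0.87 and ABCG2 at 0.85, a transporter of the milk-facing membrane, and LPL was most like DNAJC12 and CD320, both at 0.86. ACSS1 was most like PI4KA at 0.72, and SDHA, a subunit of mitochondrial succinate dehydrogenase, was among its top 3 at 0.67. SLC27A6 had 0.66 with LMBRD1, ACSL1 had 0.70 with SLC25A4, the mitochondrial ADP/ATP carrier, VLDLR had 0.75 with RESP18 and ACSL3 had 0.71 with BAG5.

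Other genes of these pathways are given for comparison, again with 0 past the adjusted threshold by limma in any list. Of 12 measured genes of the acetate route to new fatty acids, 10 had a positive slope per K allele, against 49.9% of all genes, with a median of 0.11 against 0.000 over all genes, and 0 were under an unadjusted p of 0.05 by limma, against 9.56% of all genes. Without the pair 9 of 12 were positive, against 53.4%, with a median of 0.04. FASN had 0.39 (SE 0.19), SLC16A1, a monocarboxylate transporter, 0.39 (SE 0.23), SCD, which puts the double bond into stearate, 0.35 (SE 0.18), and IDH1 0.13 (SE 0.07). Without the pair these slopes were 0.09, 0.09, 0.06 and 0.07, while those of ACSS2 and ACSS1 were 0.21 and 0.20. The difference between them was not tested.

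Of 15 lipid regulators 14 had a positive slope, median 0.09, and 3 were under an unadjusted p of 0.05, against the same 9.56% of all genes. Without the pair 11 of 15 were positive, median 0.02, and 1 was under 0.05, against 3.21% of all genes. INSIG1, which holds SREBP back in the endoplasmic reticulum, had 0.54 (SE 0.20) and 0.27 (SE 0.12) without the pair. SREBF1, the gene of the lipogenic SREBP, had 0.35 (SE 0.13) and 0.18 (SE 0.09) without it. MBTPS1, the protease that cuts SREBP, had −0.16 (SE 0.08), and −0.07 without it.

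The remaining lists had medians from −0.13 to 0.03, and from −0.04 to 0.06 without the pair. Of 6 measured genes that control lipoprotein lipolysis 3 had a positive slope, median 0.03, with APOC3, an inhibitor of LPL, at 0.15 (SE 0.06) and 0.08 without the pair. Of 12 other transport and binding genes 7 were positive, median 0.03, with SLC27A5, a liver enzyme of bile acid conjugation, at −0.09 (SE 0.04) and −0.11 without the pair. Of 5 other acyl-CoA synthetases 2 were positive, median −0.13. Of 10 genes of acyl-CoA binding and hydrolysis 3 were positive, median −0.06, with ACBD6, an acyl-CoA binding protein, at −0.20 (SE 0.07) and −0.12 (SE 0.06) without the pair.

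Beside these slopes the fibroblast and matrix markers averaged −0.33 ± 0.13 in KK (SD, n = 4), −0.05 ± 0.19 in KA (SD, n = 13) and 0.06 ± 0.26 in the 9 AA cows other than the pair (SD, n = 9). Their slope was positive in 1 of 8 with all cows and in 0 of 8 without the pair, and that of the myoepithelium and smooth muscle markers in 0 of 6 and in 1 of 6. The endothelium markers averaged 0.07 ± 0.16 in KK, 0.22 ± 0.17 in KA and 0.09 ± 0.17 in those AA cows, and 7 of 8 were higher in KA than in AA both with and without the pair. The lymphocyte markers averaged 0.22 ± 0.33 in KK, −0.16 ± 0.14 in KA and −0.03 ± 0.12 in those AA cows, and 5 of 5 were higher in KK than in KA. The KK cows ran from 0.04 to 0.72 in that mean, and the highest stood apart from the rest. The milk-secreting epithelium markers averaged −0.02 ± 0.14 in KK, −0.04 ± 0.12 in KA and 0.04 ± 0.12 in those AA cows. The RNA quality measure averaged 0.04 in KK, −0.07 in KA and 0.02 in those AA cows. The part of any of these markers in the slopes of ACSS1 and ACSS2 or in the KA values of VLDLR, ACSL3 and SLC27A6 was not tested.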

How the data were processed

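RNA of 28 mammary biopsies was measured on Affymetrix Bovine Genome Arrays, 1 array per cow. The deposited table holds a log2 value for each array and probe set. The authors worked with Bioconductor 2.7 in R 2.13, per the labels' protocols. RMA and GCRMA are both named in the submitters' processing notes, without saying which made this table. The values lie around 0 in every probe set, so its baseline had been taken off, by a step that is not described. Levels are lost and signal over background is unknown. A level class (3026 bright, 14036 intermediate, 6954 dim) was read from the rounding steps of the values, where at least 80% of a probe set's values had to lie on a step. Of 24128 probe sets, 112 controls were left out.

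The platform annotation gave 1 symbol for 13292 probe sets, several for 86 and none for 10638. For 13263 of the probe sets with 1 symbol, RefSeq's gene table (ARS-UCD2.0) held the gene identifier. Every probe set of the 9 genes was named. Where a gene needed a single value, the brightest level class chose the probe set, then the plainest type of probe set, then the identifier. From each pathway list up to 4 genes with the smallest slope p were open to naming, and for each member the 3 genes with the highest r. Members and lists were chosen with earlier results of these data known. No coordinates are printed because no source names the genome build of the probe sets, and promoter motifs were not analysed here.

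Tests used limma 3.58.1 in R 4.3.3 (lmFit, eBayes) over all 24016 probe sets with Benjamini-Hochberg adjustment at 0.05, with a mean per genotype, and with a slope per K allele. The fits were tested on simulated data. Permutation tests of correlations used 100000 resamples. Alternatives were quantile normalization, median centring, leaving out dim probe sets, robust eBayes, array weights, array number as a block or within its ranges, RNA quality as a covariate, the compared groups alone, a threshold of 0.10, and leaving out AA 2 with AA 9 or each array in turn. The number of arrays limits the precision.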

Additional observations from a re-analysis of the deposited data

Results flagged for a closer look

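ACSS1 probe set Bt.15996.1.S1_at stood at 0.70 in cow KK 3, farther above the other 3 KK cows (0.07 to 0.11) than a test for a single far value in a group of 4 allows. Chance flags about 1 in 20 groups tested this way. The KK group of each of the 15 probe sets was tested, and this was the only flag. The second ACSS1 probe set was also highest in KK 3, at 0.76, but was not flagged, and it correlated with the first at 0.80 over the 26 cows.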

How the results depend on the processing

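Of 3161 probe set values recomputed under an alternative, 346 had another sign, and in 35 of these the reported or the recomputed value had a 95% interval that excludes 0. Of these, KA minus AA of SLC27A6 (0.16 as reported) was −0.55 with array weights, −0.56 without AA 2 and AA 9, −0.77 within array numbers 29 to 42 without AA 2, −0.58 within 43 to 56 without AA 9, and −0.67 with array number as a block and without the pair. With arrays left out 1 at a time, from all 28 and from the 26, it ran from −0.63 to 0.29 and the slope of SLC27A6 from −0.31 to 0.31. KA minus AA of ACSS1 Bt.15996.1.S2_at (0.34) was −0.05 within 43 to 56 without AA 9 and −0.00014 with the block and without the pair. No member passed the adjusted threshold in the slope, KK minus AA or KK minus KA under any alternative run. In KA minus AA 2 members passed within 43 to 56 (ACSL3 Bt.19850.1.S1_at and VLDLR Bt.29875.1.S1_s_at), and leaving out 1 array gave 0 to 1, with VLDLR Bt.29875.1.S1_s_at passing without AA 1. Of all probe sets, KA minus AA called 0 as reported, 12 at a threshold of 0.10, 47 after quantile normalization, 104 with array weights, 5 without dim probe sets, 2181 within 43 to 56, 6 there without AA 9, 1 with the block and without the pair, and 0 to 525 with 1 array left out, the most without AA 1, with 5 without KK 3 and without KA 5 and 1 without AA 7 and without KA 9. KK minus KA called 3 with array weights and 0 as reported. Of the gene pairs 7 passed, and 4 without the 2 arrays farthest from the median of the first gene of each pair. The cause of these changes was not tested. The fits with the block and without the pair, and those leaving out a further array of the 26, were chosen after seeing the data. No paired analysis was possible because the replicate numbers were given in accession order and pair no cows. With 4 KK cows, intervals of KK differences are wide.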
